A study of Mus musculus with 12 samples.

Results

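The phase II transferases join a water-soluble group to a foreign or endogenous compound, and 60 genes of this kind were followed here across kidney RNA-seq libraries from WT mice and mice labelled Tet2-/-. Members were taken by symbol from 24421 gene symbols: the soluble glutathione S-transferases of classes alpha, mu, pi, theta, omega, kappa and zeta (21 genes), the UDP-glycosyltransferases of families UGT1, UGT2 and UGT3 (20 genes) and the sulfotransferases (19 genes). Whole kidneys of 12 male mice on a C57BL/6J background, 6 weeks old and bred from Tet2+/- pairs, gave 4 groups of 3 libraries. Baseline groups, WT and Tet2-/-, had no operation. The ischemia-reperfusion (IR) groups, WT and Tet2-/-, had the right renal pedicle clamped for 60 min with removal of the left kidney, and were taken after 24 h of reperfusion. No sham-operated library was analysed, so the IR effect cannot be told apart from that of anesthesia, surgery and loss of the other kidney. The deletion is germline, so that it is carried by blood cells as well as kidney cells. As bulk libraries, these cannot separate fewer cells of a type from less RNA per cell.

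Tet2 itself, as the check of the labels, was at 9.15, 6.25 and 7.33 FPKM (fragments scaled by transcript length and by the depth of the library) at WT baseline, 9.24, 16.6 and 10.3 at Tet2-/- baseline, 9.34, 3.97 and 3.86 after WT IR and 2.64, 3.20 and 1.76 after Tet2-/- IR. The baseline libraries labelled Tet2-/- were therefore not lower in total Tet2 transcript than WT (log2 fold change 0.76, standard error 0.24, adjusted p = 0.320), and after IR the difference did not pass the test (−1.28, standard error 0.36, adjusted p = 0.0690). The count covers the whole transcript and does not show whether a deleted exon is missing. All comparisons below rest on the labels. Counts on 1 transcript per symbol summed to 51007362 to 107969879 a library. Of the members, 28 reached a mean of 20 FPKM in at least 1 group, and for these the spread between mice limits the precision more than counting error.

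Glutathione S-transferases (GSTs) couple glutathione to electrophiles such as epoxides and lipid peroxidation products, UDP-glucuronosyltransferases (UGTs) move glucuronic acid from UDP-glucuronate to phenols, steroids and bilirubin, and sulfotransferases (SULTs) move sulfate from the activated donor PAPS to phenols, catecholamines and steroids. In the kidney the proximal tubule carries much of this conjugating capacity, together with the transporters that pass the conjugates into urine. Several GST genes are known targets of the transcription factor NRF2, which acts at antioxidant response elements when cells meet electrophiles or oxidants.

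The genes lie in clusters of related copies. On the mm9 coordinates of the files, the 7 mu genes span chr3:107698772-107847774, 3 of the 4 alpha genes (Gsta4, Gsta1 and Gsta2) span chr9:78039773-78194952, the 2 pi genes chr19:4035411-4042221, the 4 theta genes chr10:75236867-75297626 and the 2 omega genes chr19:47929479-47960795. The 8 UGT1 transcripts share chr1:89951986-90116577, the 10 UGT2 genes chr5:87318795-87919896, the 2 UGT3 genes chr15:9209584-9300625 and the 8 Sult2a genes chr7:14209316-15078275. Sult1b1, Sult1d1 and Sult1e1 lie together at chr5:87942364-88020636.

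The promoters of 4 genes are shown: Gsta1, Gsta2 and Gstm5, which rose after IR in both genotypes, and Gsta3, the alpha gene on another chromosome that was called for IR in neither by the same test, although it was called in WT kidneys with the replicate number as a block. Each run is the 250 bases before the annotated start, 5′ to 3′ on the gene's own strand, from RefSeq on GRCm38.p6. In Gstm5 (chr3:107895604-107895853, plus strand) and Gsta3 (chr1:21240335-21240584, plus strand) capitals mark a match to the antioxidant response element core TGACNNNGC, where N is any base, which begins at −42 and −121 from the start. In Gsta1 (chr9:78230419-78230668, plus strand) and Gsta2 (chr9:78347146-78347395, minus strand) capitals mark the longest run the pair shares, 29 bases that begin at −118 and −121.
Gstm5: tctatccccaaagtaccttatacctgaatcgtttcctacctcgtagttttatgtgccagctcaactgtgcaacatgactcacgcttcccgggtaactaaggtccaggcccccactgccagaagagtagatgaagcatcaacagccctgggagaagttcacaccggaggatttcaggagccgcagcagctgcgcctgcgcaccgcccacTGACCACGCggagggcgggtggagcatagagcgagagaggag
Gsta3: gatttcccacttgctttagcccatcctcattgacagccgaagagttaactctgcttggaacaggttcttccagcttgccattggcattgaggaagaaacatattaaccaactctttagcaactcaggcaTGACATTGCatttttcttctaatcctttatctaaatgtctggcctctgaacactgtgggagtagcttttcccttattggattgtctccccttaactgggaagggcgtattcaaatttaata
Gsta1: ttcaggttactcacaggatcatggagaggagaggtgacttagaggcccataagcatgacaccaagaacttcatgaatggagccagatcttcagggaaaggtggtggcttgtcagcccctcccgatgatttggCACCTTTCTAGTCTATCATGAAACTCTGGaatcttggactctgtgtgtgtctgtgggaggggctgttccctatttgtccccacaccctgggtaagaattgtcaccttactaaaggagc
Gsta2: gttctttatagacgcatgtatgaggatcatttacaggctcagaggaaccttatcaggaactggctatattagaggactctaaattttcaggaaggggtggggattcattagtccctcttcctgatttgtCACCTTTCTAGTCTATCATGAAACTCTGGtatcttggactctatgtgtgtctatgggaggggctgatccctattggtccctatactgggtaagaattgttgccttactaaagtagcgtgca
Promoter entries from 250 bases before to 50 after the start were found for 52 of the 60 members (63 promoters). The antioxidant response element core was searched on both strands and was present in 3 of these promoters (4.76%), of Gsta3, Gstm5 and Gstm7 (which begins at −129), against 12.4% of 32851 promoters of all genes. The core of the xenobiotic response element bound by the aryl hydrocarbon receptor, TNGCGTG, was present in 3 (4.76%), of Gsta2, Sult1d1 and Ugt1a5, against 5.07% of all. The HNF4 DR1 element was present in 0 member promoters and in 0.0944% of all. A match is a description of these letters only, and their absence from the window says nothing about the factor.

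Of the 60 members, 33 reached a mean of 5 FPKM in at least 1 group and 20 stayed under 1 FPKM in every group, among them all 8 Sult2a genes. Sult2a2, Sult2a7 and Sult2a8 had 0 counts in every library. Counts were high enough to test 46 members in at least 1 comparison, and 14 (Sult1c1, the 8 Sult2a genes, Sult3a1, Ugt2b1, Ugt2b35, Ugt2a1 and Ugt2a2) were tested in none. At WT baseline the largest shares of the summed FPKM of all members were those of Gstm1 (12.8%), Ugt3a2 (12.6%) and Ugt2b38 (12.6%). After Tet2-/- IR the largest share was that of Gstm5 (14.1%, against 3.03% at WT baseline), ahead of Gstm1 (9.71%) and Gstp1 (6.31%), while Ugt2b38 stood at 5.08% and Ugt3a2 at 4.90%.

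A gene was called when edgeR's quasi-likelihood test gave a Benjamini-Hochberg adjusted p under 0.05 over all genes tested and an absolute log2 fold change over 1. Fold changes and interactions below are on the log2 scale as fitted by edgeR, each with its standard error, and the verbs rose and fell are kept for calls. At baseline 0 of 42 tested members were called higher and 0 lower in Tet2-/- than WT kidneys (background over 16086 genes: 0.0124% higher and 0% lower). The unadjusted p was under 0.05 for 3 members with a positive and 2 with a negative difference (backgrounds 3.56% and 8.2%). DESeq2 called 1 (Sult5a1) and limma called 0. The median log2 difference of the members was 0.02, beside 0.00 over all genes. The 3 libraries of each group are separate samples by their labels, and the p-values measure the spread among them.

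After IR, 43 members were tested between genotypes, of which 2 were called higher in Tet2-/- kidneys (Gsta1 and Sult1e1, background 2.3%, of which Sult1e1 passed the filter on low counts only through the Tet2-/- IR libraries) and 5 lower (Gsta3, Gstm1, Gstz1, Ugt3a1 and Ugt3a2, background 3.85%). Leaving out 1 library moved these counts to between 0 and 2 higher and between 1 and 6 lower. They were 0 and 1 without WT IR replicate 1, and 0 and 2 without WT IR replicate 3. Without Tet2-/- IR replicate 1 they were 1 and 3. There was 1 higher without Tet2-/- IR replicate 2 (Sult1e1) or 3 (Gsto1, with Gsta1 and Sult1e1 both lost). Without WT IR replicate 2, Gsto1 was called in place of Sult1e1. With the adjusted p alone, 3 were higher and 11 lower (backgrounds 3.51% and 6.17%). The median member stood at −0.62 on the log2 scale, beside 0.04 over all genes. Fitted differences were negative for 31 of the 43, and for all 15 UGT transcripts, 8 of which share most of their reads.

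IR against baseline within WT kidneys called 5 of 43 members higher (Gsta1, Gsta2, Gstm5, Gstp1 and Gstp2, background 1.46%) and 1 lower (Sult1a1, background 0.887%), with a median of −0.06 beside −0.03 over all genes. The 5 became 3, 2 and 1 without WT baseline replicates 1, 2 and 3 and 1 without WT IR replicate 2 or 3, and leaving out any 1 of these 5 libraries lost the Sult1a1 call. The adjusted p alone gave the same counts (backgrounds 1.88% and 1.14%). With the replicate number as a block, Gsta3 was called higher and Gstm2 lower in addition. Over all genes the block gave 448 higher and 565 lower, against 234 and 142 without it. Within Tet2-/- kidneys, 6 of 45 were called higher (Gsta1, Gsta2, Gstm5, Gsto1, Gstp1 and Sult1e1, background 12.7%) and 18 lower (background 11.6%). Of these, Gsta1 and Sult1e1 passed the filter on low counts through the IR libraries and Ugt2b36 through the baseline libraries, the groups where they are high. The median member was at −0.25 beside 0.04 over all genes. With the adjusted p alone, 7 were higher and 20 lower (backgrounds 22.9% and 20.3%). The 18 were 9 GSTs, 7 UGTs and 2 SULTs. With limma on log2(FPKM + 1) the lower calls of Gstm2, Gstm3, Gstm4, Gsto2, Gstt2, Sult5a1, Ugt2a3 and Ugt2b36 were lost.

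Whether the IR effect differed between genotypes was tested as an interaction that used all 12 libraries and was called from the adjusted p alone (under 0.05). A negative value means a lower change in Tet2-/- than in WT kidneys. Of 46 members tested, 9 were negative (Gstk1, Gstm1, Gstm3, Gstm4, Gstt3, Gstz1, Ugt2b5, Ugt2b38 and Ugt3a2, background 5.38%) and 0 positive (background 3.78%). Ugt2b5 and Ugt2b38 share part of their sequence, so the 9 are not all separate measurements. The 9 became 5 without WT baseline replicate 1, Tet2-/- baseline replicate 2 or Tet2-/- IR replicate 1, and 3 without Tet2-/- baseline replicate 3, WT IR replicate 1 or WT IR replicate 3, and 1 positive was called without WT IR replicate 2 or Tet2-/- IR replicate 3. The unadjusted p was under 0.05 for 4 positive and 14 negative members (backgrounds 14.6% and 12.6%). DESeq2 called 3 positive (Gsta1, Gsto1 and Sult1e1) and 12 negative (with Gstt2, Sult1c2 and Ugt3a1 in addition), and limma called 3 positive and 3 negative with 1 added to the FPKM and 2 and 5 with 0.1 added. The median interaction was −0.59, beside 0.10 over all genes. Scaling by library sizes alone moved the median of all genes to 0.24 here, to 0.14 between genotypes after IR and to 0.27 for IR in Tet2-/- kidneys. Under it the calls between genotypes after IR were 3 higher and 4 lower, and the interaction calls 1 positive and 7 negative. The comparisons share libraries: the group after Tet2-/- IR enters 3 of the 5, so their calls are not independent of each other.

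**Figure D1:**
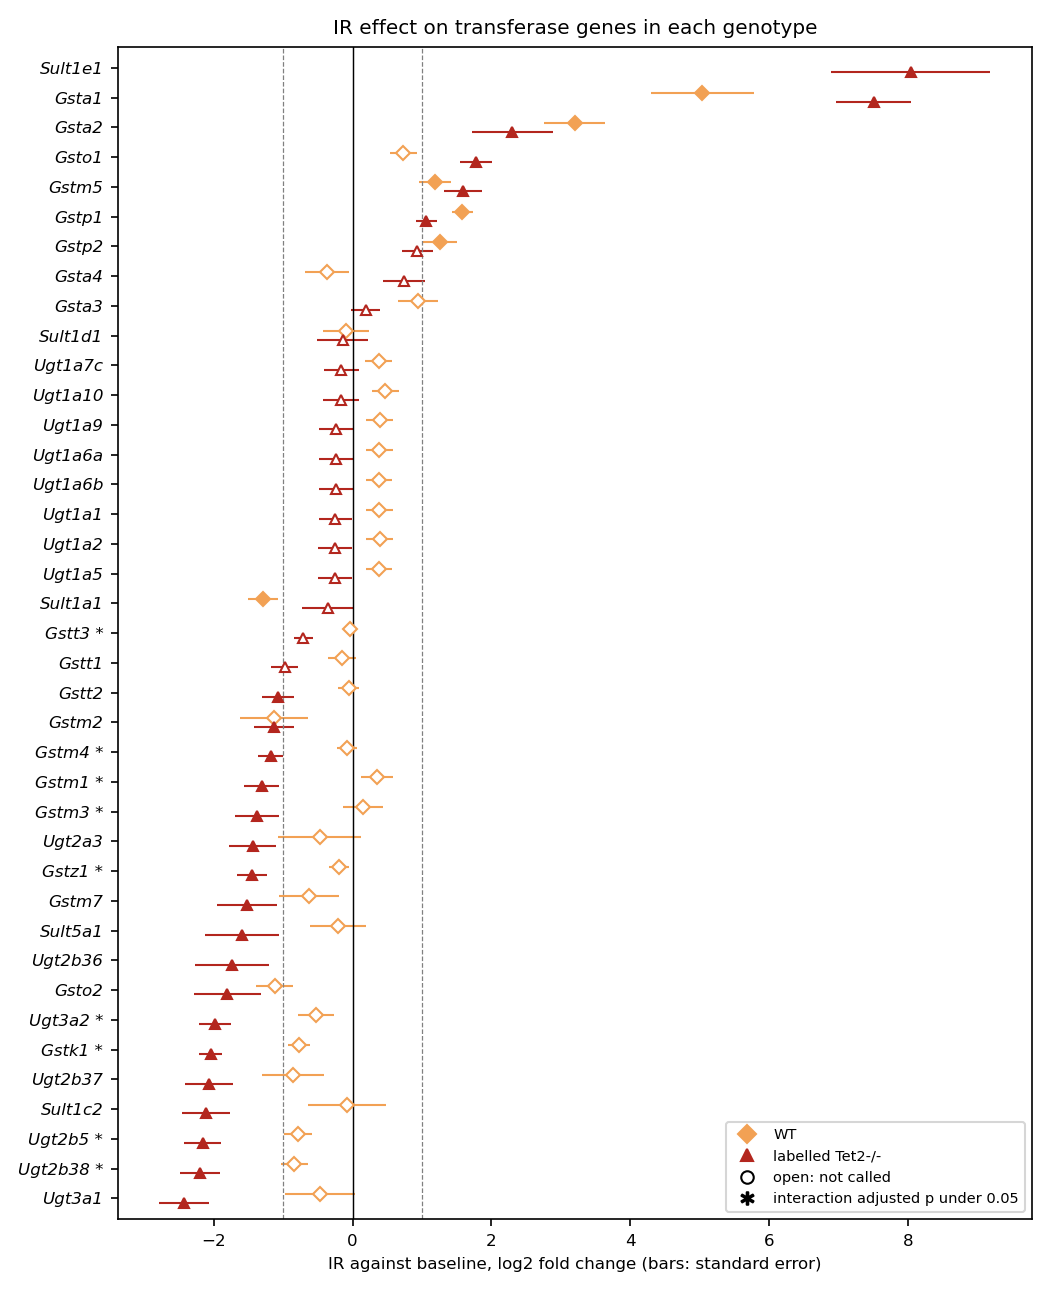
Log2 fold change of IR against baseline for each named member in WT and in Tet2-/- kidneys, with its standard error, filled where called and starred where the interaction had an adjusted p under 0.05. Gsta1, Gsta2, Gstm5 and Gstp1 are filled to the right of zero in both genotypes, while 18 members are filled to the left in Tet2-/- kidneys and 1, Sult1a1, in WT kidneys.

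In the alpha class, 2 of 4 members rose after IR in each genotype (backgrounds 1.46% in WT and 12.7% in Tet2-/- kidneys). These 2 share sequence and are not separate measurements. Gsta1 and Gsta2, near-identical antioxidant-inducible enzymes, were the pair that rose, and Gsta1 was higher after IR in Tet2-/- than WT kidneys. Gsta1 was at 0.315, 0.0530 and 0.0560 FPKM at WT baseline, 0.141, 0.0970 and 0.106 at Tet2-/- baseline, 4.10, 5.76 and 4.48 after WT IR and 10.6, 34.9 and 26.5 after Tet2-/- IR. Every IR library stood above every baseline library, and every Tet2-/- IR library above every WT IR library. The log2 fold change of Gsta1 was 5.04, standard error 0.74, adjusted p = 0.0224 in WT and 7.51, standard error 0.54, adjusted p = 0.000130 in Tet2-/- kidneys, and 2.22, standard error 0.41, adjusted p = 0.0234 between genotypes after IR. The interaction did not pass (2.49, standard error 0.88, adjusted p = 0.0979), and did with DESeq2 (2.44, adjusted p = 0.0242) and limma on log2(FPKM + 1) (2.003, 0.0271). Baseline counts, too low to test between genotypes, were 4.5 to 23.5 a library, so that the gene entered the IR comparisons through its IR libraries, with 242.5 to 425.5 after WT IR and 1006 to 3827.5 after Tet2-/- IR. The call between genotypes was lost without WT IR replicate 1 (adjusted p = 0.0844) or 3 (0.0700), or Tet2-/- IR replicate 2 (0.0575) or 3 (0.0565). That for IR in WT kidneys was lost without WT baseline replicate 2 (0.0651) or 3 (0.0721), or WT IR replicate 2 (0.0783) or 3 (0.0522).

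Gsta2 was the alpha member with the highest level after IR. It was at 17.7, 4.98 and 8.70 FPKM at WT baseline, 48.1, 11.9 and 10.4 at Tet2-/- baseline, 96.1, 105 and 100.3 after WT IR and 96.5, 145 and 167 after Tet2-/- IR. The IR libraries of both genotypes lay above all 6 baseline libraries, and those of the 2 genotypes overlapped. The change was 3.20, standard error 0.44, adjusted p = 0.0186 in WT and 2.30, standard error 0.58, adjusted p = 0.0161 in Tet2-/- kidneys, and between genotypes after IR it was 0.35, standard error 0.22, adjusted p = 0.347. The WT call was lost when WT baseline replicate 3 was left out (adjusted p = 0.0773) or WT IR replicate 2 (0.0665) or 3 (0.0521). Of all 50-base windows of the Gsta1 transcript 89.7% also occur in another protein-coding transcript, and 65.4% of those of Gsta2, in each other and in the predicted genes Gm3776, Gm10639 and Gm8074, so the split of reads among these genes is uncertain. The gene sharing most windows with Gsta1 was Gm3776 (82.9%), and with Gsta2 it was Gsta1 (44.8%). With the pair left out, the alpha sum was 49.6 ± 8.27 FPKM at WT baseline, 31.3 ± 4.08 at Tet2-/- baseline, 76.7 ± 22.3 after WT IR and 49.8 ± 13.3 after Tet2-/- IR (mean ± SD, n = 3).

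Gsta3, which conjugates the epoxide of aflatoxin, differed from Gsta1 and Gsta2. It was at 43.1, 20.96 and 25.2 FPKM at WT baseline, 15.2, 22.1 and 23.6 at Tet2-/- baseline, 76.4, 56.9 and 47.9 after WT IR and 22.8, 34.3 and 26.5 after Tet2-/- IR. WT IR libraries lay above all others, and the Tet2-/- IR libraries overlapped both baseline groups. It was lower in Tet2-/- than WT kidneys after IR (−1.21, standard error 0.19, adjusted p = 0.0175), a call lost without Tet2-/- IR replicate 1 (adjusted p = 0.0533). IR in WT kidneys gave 0.95, standard error 0.29, adjusted p = 0.122, and with the replicate number as a block it was called higher (1.002, adjusted p = 0.0163). None of its 50-base windows occurs in another gene.

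Gsta4, specialized for the lipid peroxidation product 4-hydroxynonenal, was not called in any comparison. It was at 15.8, 22.1 and 21.7 FPKM at WT baseline, 11.5, 10.9 and 10.6 at Tet2-/- baseline, 24.9, 14.5 and 9.65 after WT IR and 12.03, 25.6 and 28.1 after Tet2-/- IR. The WT and Tet2-/- baseline libraries did not overlap, but the difference did not pass the test (−0.77, standard error 0.16, adjusted p = 0.224). After IR the genotypes overlapped (0.35, standard error 0.40, adjusted p = 0.605). IR in Tet2-/- kidneys gave 0.74, standard error 0.30, adjusted p = 0.080, and without Tet2-/- IR replicate 1 it was called (1.02, adjusted p = 0.00472).

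In the mu class, the GST class with the highest summed FPKM, 1 of 7 genes rose and 5 fell in Tet2-/- kidneys after IR (backgrounds 12.7% and 11.6%), and 1 rose in WT kidneys, where fewer genes were called overall (1.46% and 0.887%). Gstm5, which lies at one end of the cluster on the plus strand while the other 6 mu genes lie on the minus strand, rose in both genotypes. It was at 133, 97.6 and 98.5 FPKM at WT baseline, 134, 101 and 117 at Tet2-/- baseline, 207, 249 and 319 after WT IR and 325, 355 and 574 after Tet2-/- IR. The 4 groups formed 3 steps, with the baseline libraries lowest and the Tet2-/- IR libraries highest, and the lowest of these (325 FPKM) just above the highest WT IR library (319). The change was 1.19, standard error 0.23, adjusted p = 0.0481 in WT and 1.59, standard error 0.27, adjusted p = 0.00323 in Tet2-/- kidneys. Between genotypes after IR it did not pass (0.60, standard error 0.32, adjusted p = 0.267). The WT call, close to the limit, was lost without any 1 of WT baseline replicates 1, 2 and 3 (adjusted p = 0.110, 0.120 and 0.113), or WT IR replicate 2 (0.120) or 3 (0.108).

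Gstm1, the most abundant GST at baseline and a broad conjugator of electrophiles, fell in Tet2-/- kidneys. It was at 546, 486 and 342 FPKM at WT baseline, 708, 611 and 441 at Tet2-/- baseline, 749.9, 639 and 450.0 after WT IR and 277, 379 and 200.3 after Tet2-/- IR. The Tet2-/- IR libraries were below all WT IR and all Tet2-/- baseline libraries, and WT IR libraries overlapped WT baseline. The change was −1.31, standard error 0.26, adjusted p = 0.00557 in Tet2-/- kidneys and stood at 0.35, standard error 0.23, adjusted p = 0.405 in WT kidneys, with an interaction of −1.62, standard error 0.35, adjusted p = 0.0198. Between genotypes after IR it was lower in Tet2-/- kidneys (−1.205, standard error 0.25, adjusted p = 0.0328). This last call was lost without WT IR replicates 1, 2 or 3 (adjusted p = 0.103, 0.0662 and 0.0601) or Tet2-/- IR replicate 1 or 3 (0.0971 and 0.0628), and also with library sizes alone (0.0560) and limma with 1 (0.0705) or 0.1 added (0.0631). It held in 8 of 16 alternatives. The interaction was lost without WT IR replicate 1 (0.0516) and with limma and 1 added (0.0508). In sequence, 14.8% of its 50-base windows occur in other genes.

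Gstm4 and Gstm3, at lower levels, also had their lowest mean after Tet2-/- IR. Gstm4 was at 10.9, 9.33 and 9.03 FPKM at WT baseline, 10.7, 10.3 and 9.93 at Tet2-/- baseline, 11.3, 9.78 and 7.98 after WT IR and 4.17, 6.99 and 5.26 after Tet2-/- IR. Its Tet2-/- IR libraries lay below the other 9, with a change of −1.18, standard error 0.18, adjusted p = 0.00213 in Tet2-/- kidneys, −0.08 in WT kidneys and an interaction of −1.06, standard error 0.23, adjusted p = 0.0182. The fold change in Tet2-/- kidneys was inside the limit with library sizes alone (−0.95) and with limma and 1 (−0.83) or 0.1 added (−0.93), and the interaction was lost with limma and 1 added (adjusted p = 0.0503). Gstm3 was at 1.16, 1.301 and 0.829 FPKM at WT baseline, 1.70, 1.48 and 1.15 at Tet2-/- baseline, 1.58, 1.28 and 0.972 after WT IR and 0.635, 0.893 and 0.484 after Tet2-/- IR. Its interaction was −1.49, standard error 0.40, adjusted p = 0.0410, from −1.38, standard error 0.31, adjusted p = 0.0105 in Tet2-/- kidneys and 0.15 in WT kidneys. That interaction passed in 7 of 21 alternatives and was lost without any 1 library except WT baseline replicate 2 or Tet2-/- IR replicate 2 (adjusted p from 0.0509 to 0.101), and with library sizes alone (0.0777), no filter (0.0532) and limma with 1 (0.0557) or 0.1 added (0.0603). Gstm3 did not pass between genotypes after IR (−1.03, standard error 0.34, adjusted p = 0.0976), and did with DESeq2 (−1.04, adjusted p = 0.0247) and with all 12 libraries in a single fit (−1.03, 0.0291). Of its windows 17.6% are shared, mostly with Gstm1.

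Gstm2 differed widely among WT kidneys. It was at 37.1, 77.9 and 39.9 FPKM at WT baseline, 32.8, 28.6 and 28.9 at Tet2-/- baseline, 19.8, 44.1 and 11.04 after WT IR and 19.7, 22.1 and 8.52 after Tet2-/- IR. Replicate 2 was the highest of its group in both WT groups. Gstm2 fell in Tet2-/- kidneys after IR (−1.12, standard error 0.29, adjusted p = 0.0166), and in WT kidneys the change was −1.13, standard error 0.49, adjusted p = 0.231, or −1.25 with adjusted p = 0.0173 with the replicate number as a block. The Tet2-/- call was lost without Tet2-/- baseline replicate 1 (adjusted p = 0.0537), with library sizes alone (0.0566), in a single fit of 12 libraries (0.0659) and with limma and 1 added (0.0582). Without Tet2-/- IR replicate 3 the fold change was −0.84, and with limma and 0.1 added −0.95. Gstm7, at a mean of 5.10 ± 0.4996 FPKM at Tet2-/- baseline and 2.09 ± 1.22 after IR (mean ± SD, n = 3), also fell (−1.52, standard error 0.43, adjusted p = 0.0248), and that call was lost without Tet2-/- baseline replicate 1, 2 or 3 (0.0522, 0.0646 and 0.0708) or Tet2-/- IR replicate 2 (0.0678). The remaining mu gene, Gstm6, was under 1 FPKM in the mean of every group and was not called.

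Both pi genes rose after IR in WT kidneys (background 1.46%). Gstp1, a broad detoxifier that also binds stress kinases, was at 60.7, 66.3 and 49.3 FPKM at WT baseline, 87.1, 62.7 and 74.2 at Tet2-/- baseline, 201, 208 and 145 after WT IR and 172, 202 and 185 after Tet2-/- IR. All 6 IR libraries stood above all 6 baseline libraries, and the genotypes overlapped after IR. The change was 1.58, standard error 0.16, adjusted p = 0.00842 in WT kidneys, called in all 16 alternatives, and 1.06, standard error 0.15, adjusted p = 0.00141 in Tet2-/- kidneys, where the fold change without Tet2-/- baseline replicate 2 was 0.95. Its neighbour Gstp2 was at means of 3.94 ± 1.16, 5.06 ± 1.09, 9.81 ± 0.621 and 11.5 ± 1.88 FPKM (SD, n = 3) at WT baseline, Tet2-/- baseline, WT IR and Tet2-/- IR. It rose in WT kidneys (1.26, standard error 0.24, adjusted p = 0.0455), a call that any 1 WT library left out removed (adjusted p from 0.0577 to 0.165), as did upper quartile scaling (0.0522) and transcripts summed per symbol (0.0502). It reached 0.93, standard error 0.23, adjusted p = 0.0134 in Tet2-/- kidneys, where it was called without Tet2-/- baseline replicate 1 (1.09) or Tet2-/- IR replicate 1 (1.02), with library sizes alone (1.16) and with limma and 1 (1.05) or 0.1 added (1.18). Gstp1 and Gstp2 share 68.3% and 67.9% of their 50-base windows, so the split of reads between them is uncertain.

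In Tet2-/- kidneys 1 of the 2 omega genes rose after IR and the other fell (backgrounds 12.7% and 11.6%). Gsto1, a thioltransferase that also reduces dehydroascorbate, was at 9.25, 9.04 and 11.99 FPKM at WT baseline, 8.99, 6.499 and 10.1 at Tet2-/- baseline, 15.6, 21.9 and 15.2 after WT IR and 44.1, 35.4 and 26.2 after Tet2-/- IR. WT IR libraries lay above baseline and Tet2-/- IR libraries above WT IR. It rose in Tet2-/- kidneys (1.78, standard error 0.23, adjusted p = 0.00100) and stood at 0.73, standard error 0.19, adjusted p = 0.0922 in WT kidneys. Between genotypes after IR it passed the adjusted p but not the fold limit (0.91, standard error 0.21, adjusted p = 0.0393), and passed both without WT IR replicate 2 (1.04, adjusted p = 0.0481) or Tet2-/- IR replicate 3 (1.04, 0.0476). The interaction, 1.10, standard error 0.32, adjusted p = 0.0528, passed without WT IR replicate 2 (0.0347) or Tet2-/- IR replicate 3 (0.0376), with DESeq2 (0.0195), library sizes alone (0.0361), the filter at a mean FPKM of 1 (0.0465) and limma with 1 (0.0385) or 0.1 added (0.0347). With library sizes alone the genotype difference was also called (1.01). Gsto2 was at 0.732 ± 0.224 FPKM at Tet2-/- baseline and 0.249 ± 0.143 after IR (SD, n = 3) and fell there (−1.80, standard error 0.49, adjusted p = 0.0206), a call lost without Tet2-/- baseline replicate 1 (adjusted p = 0.0719). In WT kidneys it stood at −1.12, standard error 0.27, adjusted p = 0.0748, and DESeq2 called it (−1.12, adjusted p = 0.00836).

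**Figure D2:**
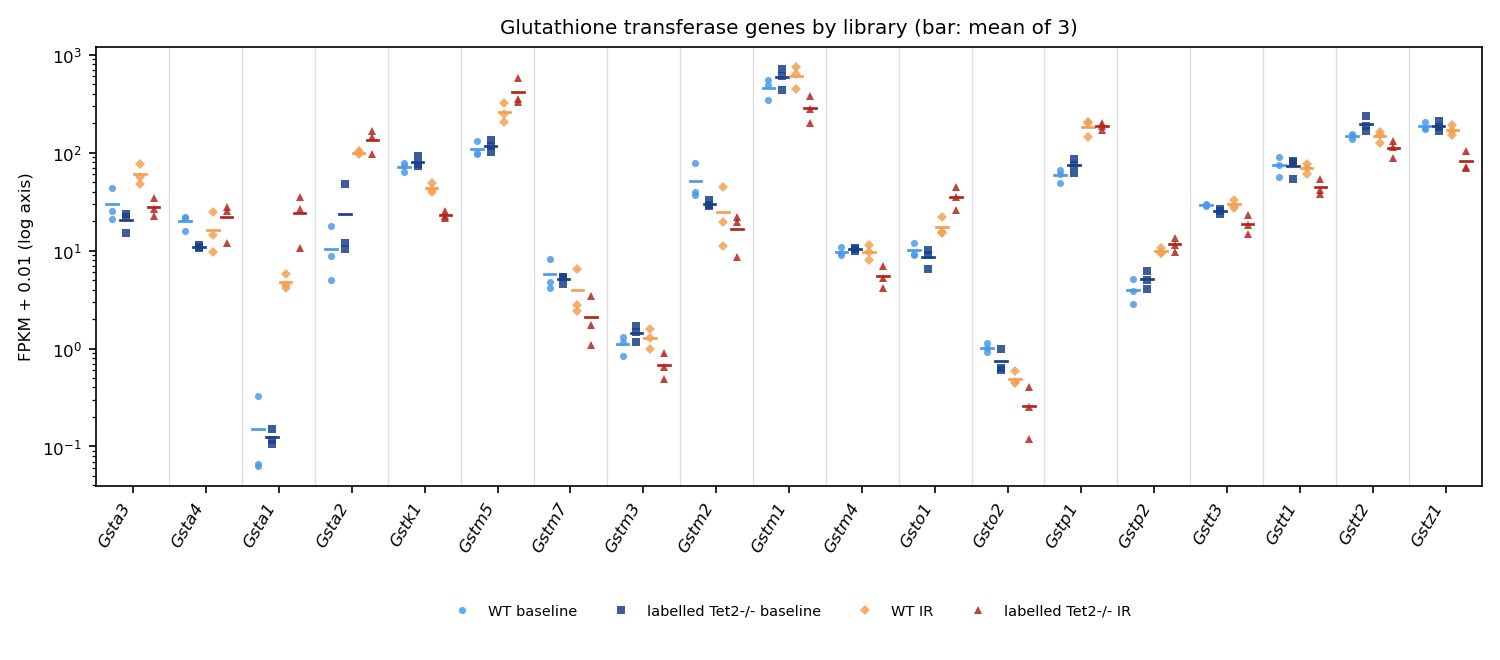
FPKM plus 0.01 on a log axis for each named glutathione S-transferase, with 1 point per library and a bar at the mean of 3 in each of the 4 groups. Gsta1 sits at or under 0.315 FPKM in all 6 baseline libraries and between 4.10 and 34.9 after IR, and Gstk1 steps down from baseline to WT IR to Tet2-/- IR with no overlap.

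Gstk1, found in mitochondria and peroxisomes and set apart from the cytosolic classes, fell after IR in Tet2-/- kidneys. It was at 63.0, 78.1 and 72.7 FPKM at WT baseline, 75.9, 73.0 and 92.2 at Tet2-/- baseline, 41.1, 39.4 and 49.0 after WT IR and 22.8, 21.6 and 25.2 after Tet2-/- IR. Baseline, WT IR and Tet2-/- IR libraries formed 3 levels with no overlap. Gstk1 fell in Tet2-/- kidneys (−2.04, standard error 0.16, adjusted p = 0.000189), and in WT kidneys it stood at −0.78, standard error 0.16, adjusted p = 0.0541. The interaction (−1.23, standard error 0.23, adjusted p = 0.0112) passed in all 21 alternatives. Between genotypes after IR the adjusted p passed and the fold change was just inside the limit (−0.998, standard error 0.18, adjusted p = 0.0234), crossing it without WT IR replicate 2 (−1.10, adjusted p = 0.0318) or Tet2-/- IR replicate 3 (−1.12, 0.0415), and with transcripts summed per symbol (−1.01, 0.0238).

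Gstz1 is maleylacetoacetate isomerase, a step of tyrosine breakdown. It was at 206, 177 and 176 FPKM at WT baseline, 168, 183 and 209 at Tet2-/- baseline, 189.8, 153 and 166 after WT IR and 104, 70.0 and 70.9 after Tet2-/- IR. The Tet2-/- IR libraries lay below the other 9, which overlapped. Gstz1 fell in Tet2-/- kidneys (−1.45, standard error 0.21, adjusted p = 0.00170), stood at −0.19 in WT kidneys, and was lower in Tet2-/- than WT kidneys after IR (−1.15, standard error 0.22, adjusted p = 0.0244), with an interaction of −1.21, standard error 0.27, adjusted p = 0.0206. The genotype call was lost without WT IR replicate 1 (adjusted p = 0.0846) or 3 (0.0793), or Tet2-/- IR replicate 2 (0.0608) or 3 (0.0623). The interaction was lost without Tet2-/- baseline replicate 3 (0.0524), WT IR replicate 1 (0.0523) or WT IR replicate 3 (0.0502).

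In the theta class, active on small halogenated compounds, 1 member was called in an IR comparison (Gstt2, lower in Tet2-/- kidneys, background 11.6%). Gstt3 was at 29.99, 28.9 and 28.2 FPKM at WT baseline, 26.7, 23.9 and 25.5 at Tet2-/- baseline, 33.1, 28.5 and 27.2 after WT IR and 18.3, 22.9 and 14.9 after Tet2-/- IR. Its Tet2-/- IR libraries were the lowest of all, and the interaction was −0.63, standard error 0.16, adjusted p = 0.0350, which passed in 9 of 21 alternatives. It was lost without any 1 of WT baseline replicates 1, 2 and 3, Tet2-/- baseline replicates 1 and 3, WT IR replicates 1 and 3 and Tet2-/- IR replicate 1 (adjusted p from 0.0508 to 0.0894), and with library sizes alone (0.134), upper quartile scaling (0.0501) and limma with 1 (0.137) or 0.1 added (0.133). Of its windows 26.0% are shared with another transcript. Gstt2 was at 149, 155 and 138 FPKM at WT baseline, 238, 168 and 189 at Tet2-/- baseline, 152, 127 and 162 after WT IR and 114, 87.2 and 132 after Tet2-/- IR. Its Tet2-/- IR libraries were below all Tet2-/- baseline libraries and overlapped those after WT IR. It fell in Tet2-/- kidneys (−1.07, standard error 0.23, adjusted p = 0.00873), where the fold change without Tet2-/- baseline replicate 1 was −0.94, without Tet2-/- IR replicate 2 −0.87, with library sizes alone −0.86 and with limma −0.83 or −0.84. Its interaction was −0.97, standard error 0.30, adjusted p = 0.0619, passing with the replicate block (−0.97, adjusted p = 0.0402), DESeq2 (0.0160), upper quartile scaling (0.0452), the filter at a mean FPKM of 1 (0.0409) and transcripts summed per symbol (0.0468). Gstt1 was at 90.7, 56.4 and 74.7 FPKM at WT baseline, 82.6, 53.8 and 80.8 at Tet2-/- baseline, 76.8, 60.4 and 70.4 after WT IR and 37.4, 53.8 and 41.5 after Tet2-/- IR. It missed the fold limit in Tet2-/- kidneys (−0.98, standard error 0.20, adjusted p = 0.00642) and between genotypes after IR (−0.76, standard error 0.17, adjusted p = 0.0379). Without Tet2-/- baseline replicate 2 (−1.16) or Tet2-/- IR replicate 2 (−1.06) it was called in Tet2-/- kidneys. Gstt4 was at or under 0.191 FPKM in every library.

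The UGT1 enzymes are made from a single locus, in which alternative first exons are joined to a shared set of downstream exons. Ugt1a1 conjugates bilirubin, and Ugt1a6a and Ugt1a6b small phenols. The shared part begins at chr1:90111619 on mm9, and reads there were counted for each transcript, so between 58.2% (Ugt1a1) and 92.2% (Ugt1a6b) of the 50-base windows of these transcripts are common to others. Values of the 8 transcripts are thus nearly 1 measurement. Ugt1a1 was at 133, 114 and 119 FPKM at WT baseline, 89.3, 108 and 149 at Tet2-/- baseline, 149.8, 149.7 and 197 after WT IR and 137, 104 and 108 after Tet2-/- IR, and Ugt1a10 at 145, 117 and 136 FPKM at WT baseline, 91.3, 115 and 158 at Tet2-/- baseline, 171, 178 and 223 after WT IR and 158, 113 and 116 after Tet2-/- IR. WT IR libraries lay above WT baseline and above Tet2-/- IR libraries, while Tet2-/- IR libraries overlapped their baseline. Of the 8, 0 were called in any comparison by edgeR: fitted values ran from 0.38 to 0.47 for IR in WT, from −0.25 to −0.16 for IR in Tet2-/-, and from −0.67 to −0.57 between genotypes after IR (adjusted p from 0.123 to 0.156). The unadjusted p was under 0.05 for all 8 between genotypes after IR and for 1 for IR in WT kidneys. Over the 5 comparisons no alternative, DESeq2 and limma included, called any of them.

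Counts that a transcript held beyond the lowest of the 7 transcripts that end at the same base were taken as a guide to its own first exon. The lowest total includes the first exon of that transcript, and where the excess reads lie was not measured. For Ugt1a10 this excess was 8.95% ± 5.73 of the lowest at WT baseline, 5.34% ± 2.27 at Tet2-/- baseline, 16.4% ± 2.76 after WT IR and 11.3% ± 4.56 after Tet2-/- IR (SD, n = 3). For Ugt1a7c it was 7.81% ± 5.03, 4.10% ± 2.42, 7.86% ± 1.87 and 11.1% ± 2.02 in the same order. Ugt1a9 reached at most 2.26% and Ugt1a6a 1.36% in any library, and Ugt1a1, Ugt1a2 and Ugt1a5 stayed under 1%. The excess was thus highest for Ugt1a10 and Ugt1a7c, and no test was made on it. Ugt1a6b, with a shorter end, was left out of this count.

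**Figure D3:**
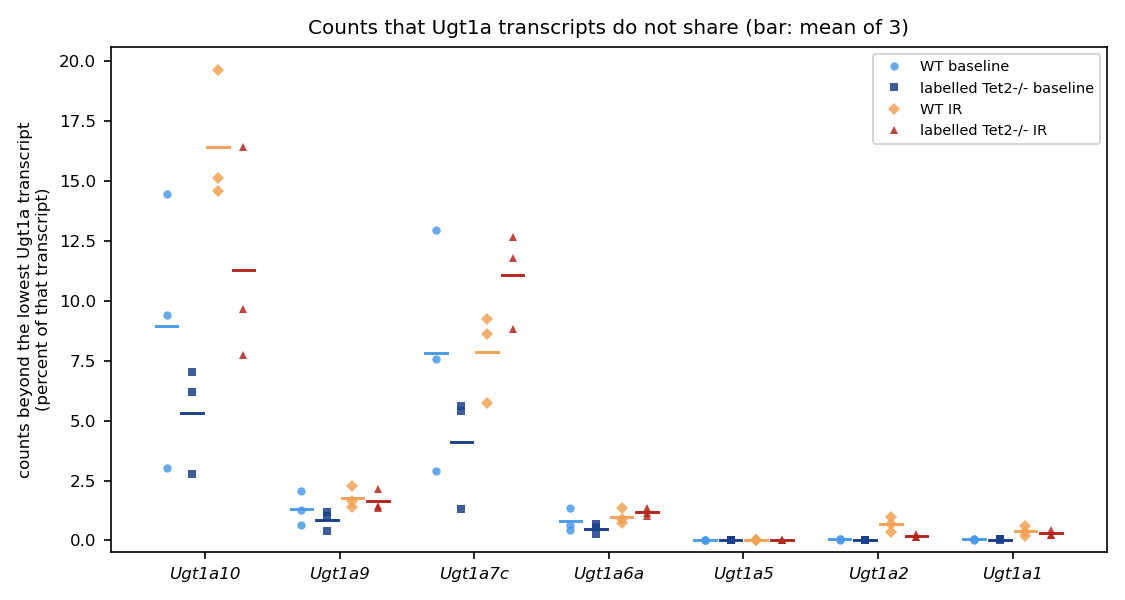
Counts of each Ugt1a transcript beyond the lowest transcript of the locus, as a percentage of the lowest, with 1 point per library in the 4 groups. Ugt1a10 and Ugt1a7c reach 19.6% and 13.0%, and the other transcripts stay at or under 2.26%.

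The UGT2 family, which glucuronidates steroids and other lipophilic compounds, had 3 members at 5 FPKM or more, and 5 of 6 tested members fell in Tet2-/- kidneys after IR (background 11.6%). The 5 are not separate measurements. Of the windows of Ugt2b38 37.4% occur in other genes, mostly in Ugt2b5 (34.1%). Ugt2b36 passed the filter on low counts only through the baseline libraries, where it is high. Ugt2b38, the most abundant, was at 442, 448 and 463 FPKM at WT baseline, 375, 755 and 601 at Tet2-/- baseline, 212, 273 and 301 after WT IR and 159, 146 and 147 after Tet2-/- IR. WT IR libraries lay below baseline and Tet2-/- IR libraries below WT IR. Ugt2b38 fell in Tet2-/- kidneys (−2.20, standard error 0.28, adjusted p = 0.000998), stood at −0.84, standard error 0.20, adjusted p = 0.0722 in WT kidneys and had an interaction of −1.32, standard error 0.35, adjusted p = 0.0394, which passed in 9 of 21 alternatives. It was lost without any 1 library except Tet2-/- baseline replicate 1 or WT IR replicate 1 (adjusted p from 0.0501 to 0.0921), and with limma and 1 (0.0580) or 0.1 added (0.0547). Between genotypes after IR it passed the adjusted p only (−0.91, standard error 0.21, adjusted p = 0.0428).

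Ugt2b5 showed the same steps at a far lower level. It was at 9.63, 6.13 and 8.08 FPKM at WT baseline, 6.88, 14.2 and 9.78 at Tet2-/- baseline, 4.47, 4.99 and 4.99 after WT IR and 2.94, 2.74 and 2.60 after Tet2-/- IR. The Tet2-/- IR libraries were all under 3 FPKM and the WT IR libraries all above 4. Ugt2b5 fell in Tet2-/- kidneys (−2.16, standard error 0.27, adjusted p = 0.000865), with an interaction of −1.34, standard error 0.35, adjusted p = 0.0397 that was lost with the replicate block (adjusted p = 0.0573), with limma and 1 (0.0742) or 0.1 added (0.0546) and without any 1 library except WT baseline replicate 1 or Tet2-/- baseline replicate 1 (0.0501 to 0.0868). Of its windows 41.1% are shared with Ugt2b38, Ugt2b37 or Ugt2b36, so the split of reads among them is uncertain.

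Ugt2b37 was at 85.5, 32.9 and 28.7 FPKM at WT baseline, 55.6, 137 and 62.5 at Tet2-/- baseline, 39.8, 21.1 and 24 after WT IR and 26.98, 26.5 and 19.3 after Tet2-/- IR. WT baseline replicate 1 and Tet2-/- baseline replicate 2 stood apart on the high side, and the IR groups overlapped. It fell in Tet2-/- kidneys (−2.07, standard error 0.35, adjusted p = 0.00287) and stood at −0.86, standard error 0.45, adjusted p = 0.305 in WT kidneys. Ugt2a3 (−1.44, adjusted p = 0.0126) and Ugt2b36 (−1.74, adjusted p = 0.0343) were also called lower there, at or under 0.380 FPKM in all libraries. Ugt2b36, with counts of 8, 28.5 and 18 at Tet2-/- baseline and 10.5, 4.5 and 5 after Tet2-/- IR, passed the filter on low counts only through the baseline libraries and was not tested for IR in WT kidneys or between genotypes after IR. The Ugt2a3 call was lost without Tet2-/- baseline replicate 2 (0.0552) or 3 (0.0565), and limma gave fold changes of −0.15 and −0.69 for it. That of Ugt2b36 held in 6 of 15 alternatives. It was lost with the replicate block (0.0549), DESeq2 (0.0912), no filter (0.0545) and limma (0.156 or 0.0685), and without Tet2-/- baseline replicate 2 (0.105) or 3 (0.112) or Tet2-/- IR replicate 2 (0.0854) or 3 (0.0672). Ugt2b34 was tested and not called, and the other 4 were too low to test.

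The UGT3 enzymes use sugar donors other than UDP-glucuronate. Ugt3a2 was at 469.9, 309 and 595 FPKM at WT baseline, 431, 543 and 482 at Tet2-/- baseline, 359, 309 and 332 after WT IR and 174, 118 and 146 after Tet2-/- IR. The Tet2-/- IR libraries lay below the other 9, at 118 to 174 FPKM, while WT IR and baseline libraries overlapped. Ugt3a2 fell in Tet2-/- kidneys (−1.98, standard error 0.24, adjusted p = 0.000701), stood at −0.52, standard error 0.26, adjusted p = 0.288 in WT kidneys, and was lower in Tet2-/- than WT kidneys after IR (−1.28, standard error 0.23, adjusted p = 0.0216), with an interaction of −1.41, standard error 0.36, adjusted p = 0.0359. The genotype call was lost without WT IR replicate 1 (adjusted p = 0.0750) or 3 (0.0737) or Tet2-/- IR replicate 3 (0.0505). The interaction was lost without any 1 of WT baseline replicate 1 (0.0670), Tet2-/- baseline replicates 1, 2 and 3 (0.0551, 0.0701 and 0.0718), and WT IR replicates 1 and 3 (0.0783 and 0.0780).

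Its neighbour Ugt3a1 was at 53.6, 27.9 and 124 FPKM at WT baseline, 39.9, 72.5 and 59.4 at Tet2-/- baseline, 56.8, 44.4 and 54.7 after WT IR and 18.5, 8.33 and 11.2 after Tet2-/- IR. The Tet2-/- IR libraries were again the lowest, and WT baseline replicate 3 stood far above the other 2 WT baseline libraries. Ugt3a1 fell in Tet2-/- kidneys (−2.42, standard error 0.36, adjusted p = 0.00166) and had the most negative difference between genotypes after IR among the 43 members tested (−2.13, standard error 0.32, adjusted p = 0.0159), lost without WT IR replicate 1 (adjusted p = 0.0535). The interaction did not pass (−1.91, standard error 0.68, adjusted p = 0.0995), and did without WT baseline replicate 3 (−2.68, adjusted p = 0.0224) and with DESeq2 (−1.97, 0.0231). The pair share 8.88% and 8.55% of their windows.

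Of the 19 sulfotransferases 9 were tested for IR in Tet2-/- kidneys, with 1 called higher and 2 lower (11.1% and 22.2%, beside backgrounds of 12.7% and 11.6%). Sult1d1, which acts on catecholamines, was the most abundant and was not called. It was at 208, 112 and 185 FPKM at WT baseline, 116, 150.4 and 118 at Tet2-/- baseline, 202, 106 and 186 after WT IR and 158, 69.3 and 181 after Tet2-/- IR. All 4 groups overlapped, with fitted changes from −0.36 to −0.01 over the 5 comparisons. Sult1c2 was at 69.2, 23.6 and 73.4 FPKM at WT baseline, 57.9, 56.4 and 67.5 at Tet2-/- baseline, 72.6, 22.4 and 68.8 after WT IR and 9.75, 28.3 and 13.2 after Tet2-/- IR. Replicate 2 of both WT groups stood far below the other WT libraries. Sult1c2 fell in Tet2-/- kidneys after IR (−2.11, standard error 0.34, adjusted p = 0.00248), and those libraries were below all Tet2-/- baseline libraries. Between genotypes after IR it did not pass (−1.83, standard error 0.54, adjusted p = 0.0778), and did with DESeq2 (−1.83, adjusted p = 0.00322), with all 12 libraries in a single fit (−1.82, 0.0333) and without WT IR replicate 2 (−2.22, 0.0319). The interaction passed with DESeq2 (−2.07, 0.0251) and without that library (−2.39, 0.0334).

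Sult1a1, the phenol sulfotransferase, was the 1 member called lower in WT kidneys after IR. Its means were 13.7 ± 3.20 and 5.91 ± 1.34 FPKM at WT baseline and after WT IR, and 13.04 ± 1.10 and 12.2 ± 7.30 in Tet2-/- kidneys (SD, n = 3). The change was −1.29, standard error 0.22, adjusted p = 0.0330 in WT and −0.35, standard error 0.37, adjusted p = 0.462 in Tet2-/- kidneys, and the interaction did not pass (0.98, standard error 0.48, adjusted p = 0.215). The WT call was lost without WT baseline replicates 1, 2 or 3 (adjusted p = 0.112, 0.0908 and 0.0552) or WT IR replicate 2 or 3 (0.141 and 0.107).

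Sult1e1, the estrogen sulfotransferase, was near 0 in 9 libraries. Its counts were 0, 4.5 and 3 at WT baseline, 4, 0 and 0 at Tet2-/- baseline, 1, 11 and 16 after WT IR and 509.5, 198.5 and 668 after Tet2-/- IR, the last at 3.67, 1.23 and 5.66 FPKM. Only the Tet2-/- IR libraries were above 1 FPKM. It passed the filter on low counts through these 3 libraries alone, so that it was tested only where it is high, and not at baseline or for IR in WT kidneys. It was higher in Tet2-/- than WT kidneys after IR (5.14, standard error 0.94, adjusted p = 0.0231), and rose in Tet2-/- kidneys (adjusted p = 0.00147), where the size of the fitted change depends on the prior count because the baseline libraries hold 4 counts in all. The genotype call was lost without WT IR replicate 1 (adjusted p = 0.0595), 2 (0.0585) or 3 (0.0511) or Tet2-/- IR replicate 1 (0.0660) or 3 (0.0516). The summed FPKM of 7 adipocyte markers in the 3 Tet2-/- IR libraries was 114, 81.4 and 601. This sum was 72.8, 50.9 and 15.05 after WT IR and 38.6, 72.4 and 55.05 at Tet2-/- baseline, all below every Tet2-/- IR library. At WT baseline, with Sult1e1 at 0, 0.036 and 0.026 FPKM, it was 59.7, 134 and 274. The 6 adrenal markers summed to at most 3.56 FPKM in any library. The part of other tissue in the Sult1e1 counts was not tested.

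Sult5a1 was at 0.603 ± 0.168 FPKM at WT baseline, 1.48 ± 0.338 at Tet2-/- baseline, 0.549 ± 0.250 after WT IR and 0.603 ± 0.498 after Tet2-/- IR (SD, n = 3). The baseline groups did not overlap, and DESeq2 called the difference (1.39, adjusted p = 0.00306) while edgeR did not (1.39, standard error 0.31, adjusted p = 0.224). It fell in Tet2-/- kidneys after IR (−1.59, standard error 0.54, adjusted p = 0.0452), a call lost without any 1 of Tet2-/- baseline replicates 1, 2 and 3 (0.0833, 0.128 and 0.0866) or Tet2-/- IR replicate 1 or 3 (0.116 and 0.0689), with library sizes alone (0.0951) and with upper quartile scaling (0.0541), and limma with 1 added gave a fold change of −0.66. Without Tet2-/- IR replicate 2 its interaction was −2.25 (0.0417). Sult1b1, Sult2b1, Sult4a1 and Sult6b1 were tested and not called.

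**Figure D4:**
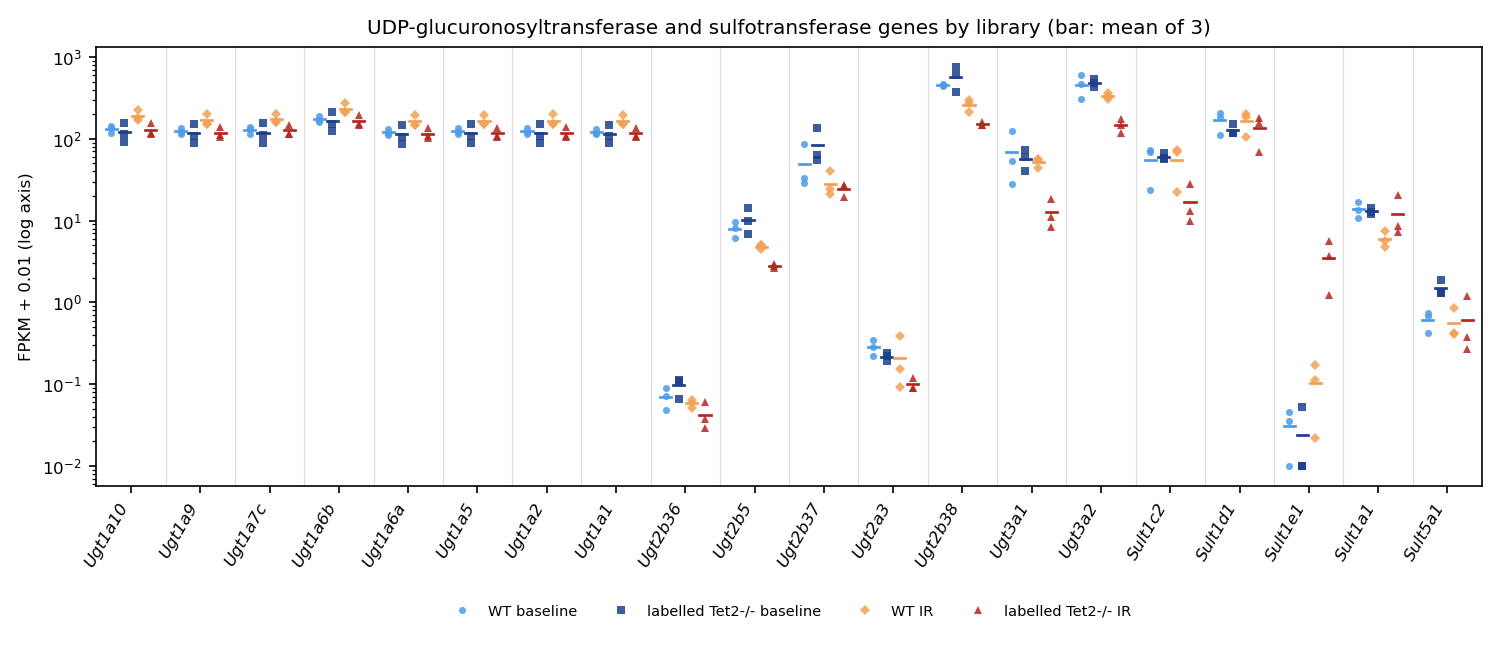
FPKM plus 0.01 on a log axis for each named UDP-glycosyltransferase and sulfotransferase, with 1 point per library and a bar at the mean of 3 in each group. The 8 Ugt1a transcripts repeat 1 pattern, Ugt2b38, Ugt3a1 and Ugt3a2 are lowest after Tet2-/- IR, and Sult1e1 is above 1 FPKM in the 3 Tet2-/- IR libraries only.

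Summed FPKM by family is given as a description without a test. The pi sum was 62.7 ± 9.80 at WT baseline, 79.7 ± 13.3 at Tet2-/- baseline, 195 ± 34.9 after WT IR and 198 ± 17.1 after Tet2-/- IR (SD, n = 3), and the alpha sum 60.3 ± 14.96, 54.9 ± 17.3, 182 ± 19.5 and 209.9 ± 59.0. The mu sum was 636 ± 125, 752 ± 144, 912 ± 107 and 729 ± 88.3. Within mu, Gstm5 was above Gstm1 after IR in Tet2-/- replicates 1 and 3 and below it in replicate 2. The UGT2 sum was 509 ± 25.9, 672 ± 234, 296 ± 38.6 and 179 ± 9.83, and the UGT3 sum 526 ± 191, 542 ± 72.2, 385 ± 31.4 and 159 ± 33.5. The SULT1 sum was 239 ± 78.0, 203 ± 17.2, 227 ± 80.1 and 169.7 ± 54.0. Without the Ugt1a, Gsta1, Gsta2, Gstp1 and Gstp2 transcripts, which share most of their sequence, the other 48 members summed to 2482 ± 255, 2776 ± 235, 2376 ± 169 and 1605 ± 83.2. These 48 are not free of shared sequence: Ugt2b38 shares 37.4% and Gstm1 14.8% of the windows.

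Markers of the proximal tubule, like the UGT2 and UGT3 sums and unlike those of alpha and pi, were lower after IR. The sum of 11 markers (such as Lrp2, Slc34a1 and Slc7a13) ranged from 4019 to 4844 FPKM at WT baseline, 4323 to 4999 at Tet2-/- baseline, 2663 to 3471 after WT IR and 888 to 1555 after Tet2-/- IR. Of the 11, 8 fell in Tet2-/- kidneys after IR (background 11.6%) and 2 in WT kidneys (background 0.887%), and none was at 0 in every library. Divided by that sum, UGT3 stood at 0.114 ± 0.0335, 0.118 ± 0.0156, 0.127 ± 0.0066 and 0.135 ± 0.0094 in the 4 groups, UGT2 at 0.112 ± 0.0085, 0.145 ± 0.050, 0.0992 ± 0.0220 and 0.157 ± 0.0398, and Gstk1 at 0.0159 ± 0.0033, 0.0174 ± 0.0012, 0.0143 ± 0.0023 and 0.0204 ± 0.0051. For zeta it was 0.0410 ± 0.0038, 0.0403 ± 0.0015, 0.0558 ± 0.0015 and 0.0694 ± 0.0086, for theta 0.0553 ± 0.0048, 0.0645 ± 0.0139, 0.0811 ± 0.0056 and 0.153 ± 0.0394, and for mu 0.141 ± 0.0337, 0.165 ± 0.0429, 0.302 ± 0.0475 and 0.655 ± 0.233, so that these stood higher per marker after IR. The same ratio for SULT1 was 0.0517 ± 0.0126, 0.0441 ± 0.0045, 0.0732 ± 0.0196 and 0.143 ± 0.035, for alpha 0.0132 ± 0.0024, 0.0121 ± 0.0046, 0.0602 ± 0.0073 and 0.193 ± 0.0919, and for omega 0.0024 ± 0.0003, 0.0020 ± 0.0004, 0.0061 ± 0.0020 and 0.0307 ± 0.0088. Markers of tubular injury summed to 4.02 to 24.3 FPKM over both baseline groups, 315 to 1094 after WT IR and 2782 to 2980 after Tet2-/- IR. Neutrophil markers summed to 0.609 to 2.78, 4.03 to 9.44 and 75.1 to 133 in the same order, and macrophage markers to 35.7 to 70.4, 33.1 to 66.5 and 61.2 to 221. All 5 glomerulus markers rose in Tet2-/- kidneys after IR (background 12.7%), with sums of 13.7 to 26.3 FPKM over both baseline groups, 3.23 to 24.9 after WT IR and 42.9 to 87.8 after Tet2-/- IR. Of 5 thick ascending limb markers, Slc12a1 and Ptger3 fell in Tet2-/- kidneys (background 11.6%), and the sum was 775 to 1918 FPKM over both baseline groups, 1344 to 1855 after WT IR, and 2124, 2627 and 390 in the 3 Tet2-/- IR libraries, replicate 3 being the lowest of all 12. Their part in the changes of the transferases was not tested.

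**Figure D5:**
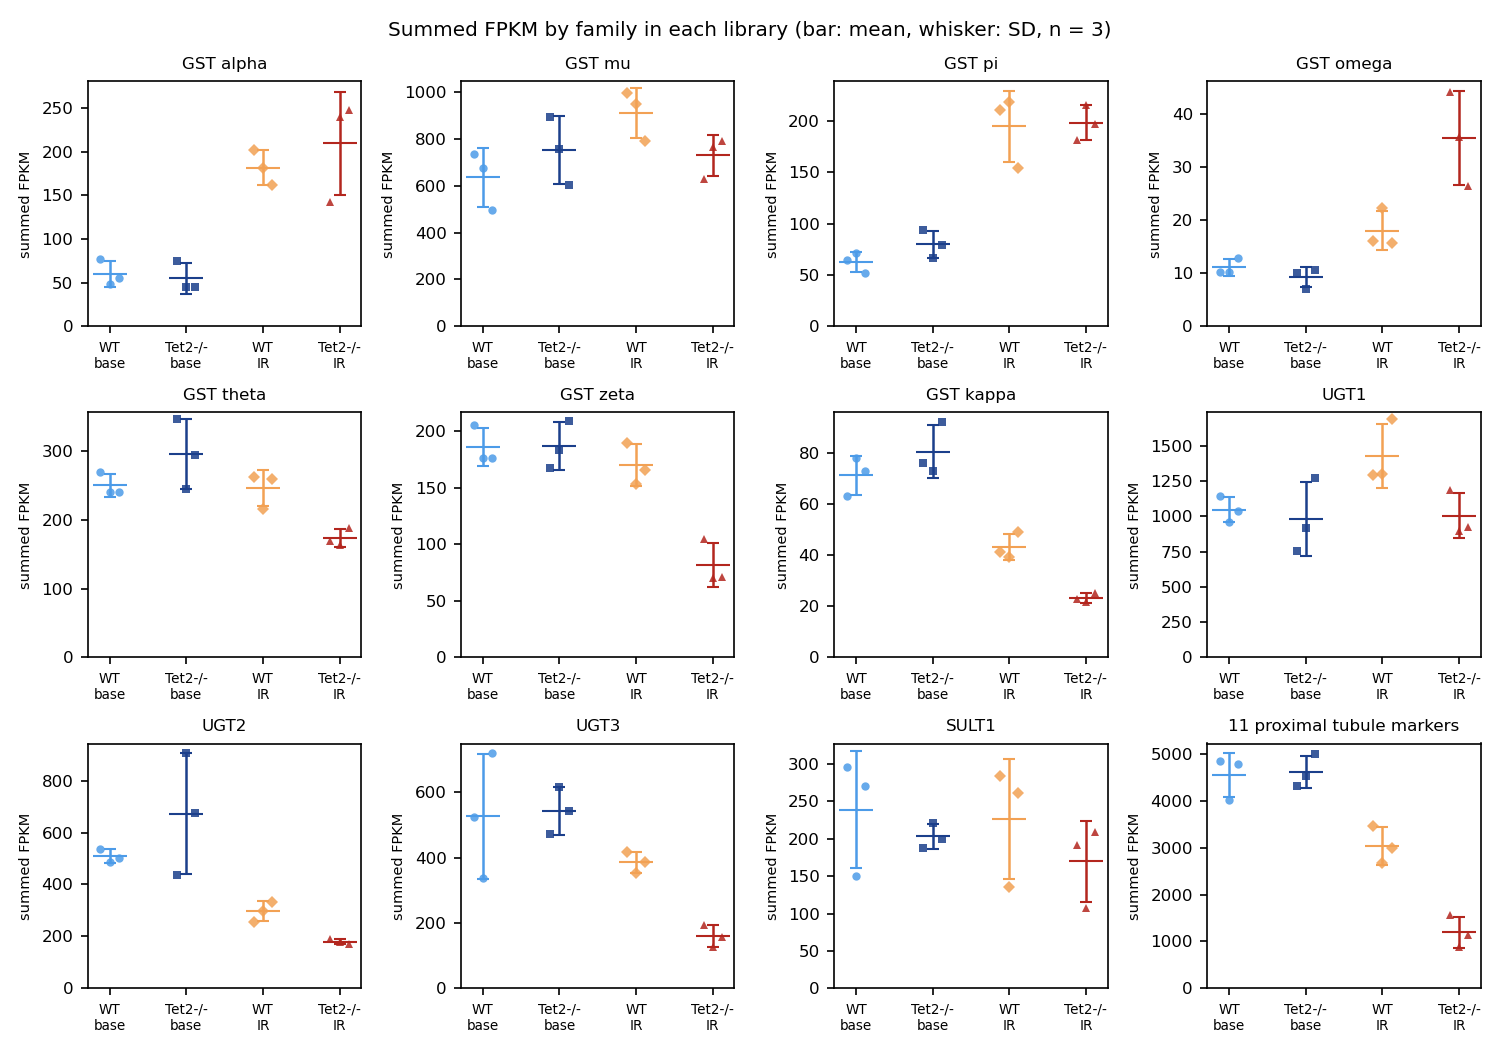
Summed FPKM of each family, and of 11 proximal tubule markers, in the 4 groups, as the mean with SD of 3 libraries. Alpha, pi and omega stand higher after IR, UGT2, UGT3, kappa and zeta lowest after Tet2-/- IR, together with the proximal tubule markers (mean 4552 at WT baseline and 1194 after Tet2-/- IR).

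The genes that feed the transferases were examined as lists. Over all genes, IR called 1.46% higher and 0.887% lower in WT kidneys and 12.7% and 11.6% in Tet2-/- kidneys, so that counts of 1 or 2 in a list of 10 are near the background of the latter. Of 19 genes of glutathione synthesis and turnover, 1 rose (Gsr, glutathione reductase, 1.01) and 2 fell (Ggct, −1.57, and Cbs, −1.22) in WT kidneys after IR, and 3 rose and 9 fell in Tet2-/- kidneys. The largest changes there were those of Slc7a11, the cystine importer (3.82, standard error 0.28, adjusted p = 0.000132), and of Cbs (−3.07, standard error 0.15, adjusted p = 4.78e-05) and Anpep (−2.41, standard error 0.25, adjusted p = 0.000442), the first a step from homocysteine to cysteine and the second a brush border peptidase. After IR, Slc7a11 was higher (2.79) and Anpep (−2.24), Cth (−1.95), Cbs and Chac2 lower in Tet2-/- than WT kidneys. The median of the list was −0.98 for IR in Tet2-/- kidneys and −0.13 in WT kidneys.

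Of 7 membrane-bound and other glutathione transferases, Mgst1, the microsomal enzyme, rose in both genotypes (2.31, standard error 0.24, adjusted p = 0.00963 in WT and 2.74, standard error 0.30, adjusted p = 0.000558 in Tet2-/- kidneys). Hpgds, the prostaglandin D synthase of hematopoietic cells, was higher in Tet2-/- than WT kidneys after IR (2.72, standard error 0.54, adjusted p = 0.0283). Hpgds, Gstcd and Ptges also rose in Tet2-/- kidneys after IR. Of 6 genes of UDP-glucuronate supply and glucuronide hydrolysis, Pgm1 (1.59) and Ugdh, which makes UDP-glucuronate (1.18), rose in WT kidneys and Pgm1 alone in Tet2-/- kidneys (2.49). Of 13 genes tested of sulfate activation and sulfate ester hydrolysis, the PAPS synthases Papss2 (−1.24, standard error 0.22, adjusted p = 0.0226) and Papss1 (−1.06, standard error 0.15, adjusted p = 0.0130) and the sulfite oxidase Suox (−1.07, standard error 0.17, adjusted p = 0.0171) were lower in Tet2-/- than WT kidneys after IR.

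Of 10 conjugate exporters, 5 rose in Tet2-/- kidneys after IR, led by Abcc3 (2.57, standard error 0.23, adjusted p = 0.000251), Abcb1a (2.21) and Abcb1b (1.97), while Abcc6 fell (−3.06) and was lower in Tet2-/- than WT kidneys (−2.29, standard error 0.54, adjusted p = 0.0437). Of 10 other conjugating enzymes, Inmt, an amine methyltransferase, fell in both genotypes (−2.76 in WT and −4.13 in Tet2-/- kidneys), and the thiopurine methyltransferase Tpmt was lower in Tet2-/- than WT kidneys after IR (−1.24, standard error 0.23, adjusted p = 0.0227). In Tet2-/- kidneys 2 of these 10 rose, near the background, and 4 fell.

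Of 17 genes of the NRF2 pathway, 4 rose in WT kidneys after IR, led by Srxn1 (2.06, standard error 0.20, adjusted p = 0.00842), Nqo1 (1.97) and Txnrd1 (1.28). In Tet2-/- kidneys 9 rose, led by Hmox1 (4.13, standard error 0.46, adjusted p = 0.000586), Srxn1 (4.02) and Slc7a11, and 2 fell (Me1, −1.398, and Osgin1, −1.37). Srxn1 was higher in Tet2-/- than WT kidneys after IR (1.76, standard error 0.25, adjusted p = 0.0139). The median of this list was 0.77 in WT and 1.004 in Tet2-/- kidneys, beside −0.03 and 0.04 over all genes. Of 10 regulators of conjugating enzymes, 1 was called, the estrogen receptor Esr1 (−1.63, standard error 0.34, adjusted p = 0.0323), which was lower in Tet2-/- than WT kidneys after IR. All 4 genes with male-biased kidney expression fell in Tet2-/- kidneys after IR and 2 (Cyp7b1 and Slco1a1) in WT kidneys. Of 3 female-biased genes, Cyp4a14 rose in both genotypes and Slc7a12 and Prlr fell in Tet2-/- kidneys. Their part in the changes of the transferases was not tested.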

How the data were processed

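RNA-seq reads of 12 whole mouse kidneys were aligned by the authors to mm9 with STAR and assigned to RefSeq transcripts with HOMER; the submitters' processing notes also name edgeR, and versions are not given in the sources used here. The authors deposited expected counts without normalization, in steps of 0.5 (38.7% not whole), and FPKM of the same transcripts. Since the planned test takes whole counts, values were rounded first. Reads in shared exons were counted for each transcript, so members of a cluster are not independent measurements. The deposited tables hold 34600 transcripts for 24421 symbols, and for each of the 5569 symbols with several transcripts the one with the highest total was used. Libraries held 51007362 to 107969879 such counts, and no library repeated another of its group. Libraries of different groups were not compared in this way.

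Each pair of groups was fitted with its 6 libraries, and the interaction with all 12, in edgeR 4.0.16 (R 4.3.3): TMM scaling, its filter for low counts, the quasi-likelihood test, and p-values adjusted by Benjamini-Hochberg across every tested gene. Calls needed an adjusted p below 0.05 together with a log2 fold change beyond 1 in either direction (the interaction needed the adjusted p alone). Alternatives were DESeq2 1.42.0, limma 3.58.1 on log2(FPKM + 1) and log2(FPKM + 0.1), other scaling and filters, transcripts summed per symbol, a replicate block, all 12 libraries in a single fit, and each library left out. The procedures were tested on simulated data. Other gene lists were fitted in the same way, without the alternatives, and some planned items are not reported here. Members and lists were chosen with earlier results of these data known. Named with values were Tet2, members called or at 5 FPKM or more in a group, and up to 3 called genes per other list and comparison; per-library values are for members at 20 FPKM or called in a genotype comparison or the interaction, the Ugt1a transcripts by 2 examples. Shared sequence is the share of 50-base windows found in protein-coding transcripts of other genes (NCBIM37).

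Same-numbered baseline and IR libraries deviated together from their group means over all genes, although the paper has them as different mice. The correlations were 0.349, 0.349 and 0.344 for WT pairs and 0.120, 0.350 and 0.202 for Tet2-/- pairs. This pairing rests on the correlations only, and the main tests did not use it. With the replicate number as a block, IR in WT kidneys called 448 genes higher and 565 lower (234 and 142 without it). In Tet2-/- kidneys these were 2196 and 2104 (2078 and 1896 without it). The number of genes called for IR in WT kidneys thus depends on the block. Tables and plots were made with pandas 2.3.3 and matplotlib 3.10.9 in Python 3.11.15.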

Additional observations from a re-analysis of the deposited data

Results flagged for a closer look

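The IR effect differed between the genotypes, by the interaction over all 12 libraries at an adjusted p under 0.05 in edgeR's quasi-likelihood test, for 9 members, each with a lower change in Tet2-/- than in WT kidneys. With 1 library left out 3 to 8 were called, and limma on log2(FPKM + 1) called 3. Among the 9, Ugt2b5 and Ugt2b38 share part of their sequence and are not separate measurements. Of 21 alternatives Gstk1 passed in 21, Gstm4 in 20, Gstm1 in 19, Gstz1 in 18, Ugt3a2 in 15, Gstt3 and Ugt2b38 in 9, Ugt2b5 in 8 and Gstm3 in 7. On the log2 scale these differences were −1.62 for Gstm1, −1.49 for Gstm3, −1.41 for Ugt3a2, −1.34 for Ugt2b5, −1.32 for Ugt2b38, −1.23 for Gstk1, −1.21 for Gstz1, −1.06 for Gstm4 and −0.63 for Gstt3. The proximal tubule marker sum was lower after IR in Tet2-/- than WT kidneys, as given above.

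Among genes that supply or accompany the transferases, the change was higher in Tet2-/- kidneys for Slc7a11 (2.95), Hpgds (2.55), Abcc4 (2.0), Srxn1 (2.0), Abcc3 (1.76) and Pgm1 (0.94). It was lower for Abcc6 (−2.62), Anpep (−2.48), Esr1 (−2.25), Cth (−2.09), Papss2 (−1.34), Tpmt (−1.33), As3mt (−0.96) and Gclm (−0.82), and for 5 further genes of glutathione supply and turnover, from −1.81 for Cbs to −0.95 for Ggt6. The sex-biased genes Slc7a12 (−5.77) and Cyp7b1 (−3.79) were also lower, as was Tet2 (−2.0). With 3 libraries a group, no single library was tested as an outlier.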

How the results depend on the processing

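Over the named members, comparisons and alternatives, 3223 values were recomputed: 3019 stayed on the same side of the threshold (2876 with the same sign, and 143 uncalled values with the other sign), 157 lost a call, 47 gained one and 0 changed sign with a call. DESeq2 called 1 member higher at baseline, 2 lower for IR in WT kidneys and 3 with a positive and 12 with a negative interaction, and 7 lower between genotypes after IR (with Gstm3 and Sult1c2 in addition). Without the fold limit 11 members were lower in Tet2-/- than WT kidneys after IR. limma on log2(FPKM + 1) called 10 lower for IR in Tet2-/- kidneys, and 3 positive and 3 negative interactions. On log2(FPKM + 0.1) these were 2 positive and 5 negative. Library sizes alone, and the filter at a mean FPKM of 1, each gave 1 positive interaction (Gsto1). With the replicate number as a block, 2 members were lower for IR in WT kidneys and Gsta3 was called higher. Between genotypes, where not every same-numbered pair was correlated above 0.1 (correlations of −0.173, −0.150 and 0.0524 at baseline, and −0.0001, 0.206 and 0.303 after IR), the block changed no call of a member. The causes of these differences were not tested.

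With each library left out in turn, the calls between genotypes after IR ranged from 0 to 2 higher and from 1 to 6 lower. IR in WT kidneys gave 1 to 4 higher and 0 to 1 lower, IR in Tet2-/- kidneys 5 to 8 higher and 13 to 17 lower, and the interaction 0 to 1 positive and 3 to 8 negative. Over all genes, DESeq2 called 23 higher and 297 lower at baseline (edgeR 2 and 0), 775 and 879 between genotypes after IR (373 and 623), 490 and 492 for IR in WT kidneys (234 and 142), and 1209 positive and 1599 negative interactions (633 and 901). Library sizes alone gave 2860 higher and 1397 lower for IR in Tet2-/- kidneys (against 2078 and 1896) and 1129 and 700 interactions.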
